A study of Mus musculus with 6 samples.

Results

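Inhibitory and paired receptors of myeloid cells, 10 genes in all, were followed in mouse blood neutrophils isolated by cell sorting. They were Cd300a, Cd300lb, Cd300ld and Cd300lf of the CD300 family, and Pirb, Lilrb4a, Sirpa, Siglece, Ceacam1 and Cd274. They were chosen by name, and all 10 were found among the 47561 gene and transcript features of each library. RNA sequencing was done on 3 samples from mice given AVP for 30 days and on 3 samples from control mice. The labels name the control only as a negative control, do not expand AVP, and give no strain, age, sex, dose or route. Whether each sample is a separate animal is not stated, so the p-values speak only for the scatter among these samples, part of which may be technical.

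Neutrophils carry surface receptors that damp or amplify their activation. Inhibitory receptors hold tyrosine motifs (ITIMs) in their tails that, once phosphorylated by Src-family kinases such as Lyn, recruit the phosphatases encoded by Ptpn6 and Inpp5d. Many have activating relatives with short tails that signal through adaptor proteins with tyrosine motifs of their own, Tyrobp (DAP12) and Fcer1g. CD300a and CD300lf are inhibitory members of the CD300 family and bind lipids such as those exposed on dying cells, CD300lb is an activating member that couples to DAP12, and mouse CD300ld is one that couples to the Fcer1g chain.

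The libraries matched their label, with all 8 neutrophil markers above 0 in each of the 6. S100a8 and S100a9 made up 18.4% to 22.9% of the total FPKM after AVP and 20.5% to 23.9% in controls. Markers of other blood cells were also listed. B cell markers summed to 384 to 1060 FPKM after AVP and 942 to 1135 FPKM in controls, T cell markers to 0 to 79.1 FPKM after AVP and 0 to 13 FPKM in controls, and basophil markers to 0 to 303 FPKM after AVP and 0 to 12.9 FPKM in controls. Eosinophil markers summed to 4.48 to 12.7 FPKM after AVP and 3.11 to 8.52 FPKM in controls. Of these, Epx and Prg2 were at 0 in all 6 libraries. AVP replicate 1 had the highest basophil sum and the highest share of haemoglobin genes, 29.2% of the total FPKM against 15.1% and 17% in the other AVP libraries and 13.6% to 19% in controls. AVP replicate 3 had the highest T cell sum and the lowest sum of the monocyte markers.

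Each member listed a value above 0 in all 6 libraries, and all 10 passed the filter of at least 1 FPKM in at least 3 libraries, so none entered the test through its higher group alone. FPKM are fragment counts relative to transcript length and library size, so levels can be set side by side between genes. Differences between groups were fitted with limma on log2(FPKM + 1) across 8523 features, with Benjamini-Hochberg adjustment and a threshold of 0.05. At that threshold 0 features (0%) were called in either direction, and 0 of the 10 members. At an unadjusted p under 0.05 there were 722 features (8.47%), of which 400 were higher after AVP (4.69%) and 322 lower (3.78%). Lilrb4a and Cd300lf, both higher after AVP, were the 2 members among them.

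The 4 CD300 members lie in a cluster on chromosome 11 of GRCm38, the assembly of the mm10 build. Cd300a spans chr11:114889152-114901946, Cd300lb chr11:114922779-114934371, Cd300ld chr11:114982443-114989886 and Cd300lf chr11:115116214-115135372. RefSeq promoter windows on GRCm38.p6, with 250 bases before the start site and 50 from it on, were available for 8 members and not for Lilrb4a or Sirpa. They were searched on both strands for GAGGAAGT, a binding motif of the myeloid ETS factor PU.1, and for the AP-1 motif TGANTCA, the C/EBP motif TTGCNNAA, the STAT motif TTCNNNGAA and the NF-kB consensus motif. The PU.1 motif stood in 3 of the 8 windows, those of Cd300lf, Cd300ld and Pirb, and in 3.2% of all 32851 windows. The NF-kB motif stood in the windows of Cd300a and Cd300ld (8.5% of all windows), and in that of Cd300ld it overlapped the PU.1 motif. It had first been searched in a looser form that fixes only its outer G and C letters, which stood in 6 of the 8 windows and in 50.8% of all windows, and was narrowed to the consensus after those matches were seen. The C/EBP motif stood in that of Cd300a (10.8% of all), and the AP-1 and STAT motifs (7.8% and 8.3% of all) in none of the 8. Shown are 4 windows, the 3 with a PU.1 motif and that of Cd300lb, the CD300 member with the lower mean after AVP, each 5′ to 3′, all from the minus strand, with the PU.1 motif in capitals. These windows, and PU.1 as the motif to mark, were picked after the matches were seen. A match describes the letters only. The motif began at the start site itself, as annotated for the window, in Cd300lf, 143 bases before the start site in Cd300ld and 120 before it in Pirb. The start site of the Cd300lf window lies 1380 bases inside the gene span given above, so it is one annotated start and not the outermost. Of the 8 windows 3 start at the outer end of their gene, those of Cd300lb, Cd300ld and Pirb.
Cd300lf, chr11:115133943-115134242: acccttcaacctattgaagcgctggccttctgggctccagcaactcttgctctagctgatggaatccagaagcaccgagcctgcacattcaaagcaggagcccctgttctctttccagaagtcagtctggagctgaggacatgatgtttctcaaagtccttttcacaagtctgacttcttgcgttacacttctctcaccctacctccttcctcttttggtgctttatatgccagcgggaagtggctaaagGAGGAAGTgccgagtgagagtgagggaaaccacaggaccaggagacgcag
Cd300ld, chr11:114989837-114990136: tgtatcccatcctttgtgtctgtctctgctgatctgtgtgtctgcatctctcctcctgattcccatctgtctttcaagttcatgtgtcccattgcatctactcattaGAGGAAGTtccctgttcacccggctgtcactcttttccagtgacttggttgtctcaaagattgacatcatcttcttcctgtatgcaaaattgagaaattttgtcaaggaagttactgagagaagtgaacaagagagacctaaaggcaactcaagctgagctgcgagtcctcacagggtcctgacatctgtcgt
Pirb, chr7:3720333-3720632: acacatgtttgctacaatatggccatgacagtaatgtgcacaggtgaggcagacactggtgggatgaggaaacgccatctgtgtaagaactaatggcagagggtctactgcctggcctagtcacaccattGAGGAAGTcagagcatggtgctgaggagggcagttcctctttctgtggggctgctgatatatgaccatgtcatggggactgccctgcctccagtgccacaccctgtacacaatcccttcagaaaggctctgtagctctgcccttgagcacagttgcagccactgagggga
Cd300lb, chr11:114934322-114934621: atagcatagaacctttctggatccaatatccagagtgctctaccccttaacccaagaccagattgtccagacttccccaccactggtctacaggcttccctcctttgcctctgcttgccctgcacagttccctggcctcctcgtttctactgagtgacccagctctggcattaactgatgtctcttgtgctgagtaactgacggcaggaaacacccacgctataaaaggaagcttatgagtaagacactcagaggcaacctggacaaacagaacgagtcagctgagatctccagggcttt

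By mean FPKM over all 6 libraries, Lilrb4a stood far above the rest at 750.1 FPKM (range 590.4 to 916.1), with no overlap between its range and that of the next gene. Cd300ld (167 FPKM), Cd300lf (162 FPKM), Pirb (137 FPKM) and Cd300a (113 FPKM) followed, and the ranges of neighbours in this order overlapped. Within libraries, Cd300ld lay above Cd300lf in 3 of 6, and Cd300lf above Pirb in 5 of 6. Cd300lb (64.4 FPKM), Siglece (51.4 FPKM) and Sirpa (38.5 FPKM) formed a lower group whose neighbours also overlapped. Ceacam1 (12.3 FPKM) lay below Sirpa in all 6 libraries without overlap of their ranges, and Cd274 (5.69 FPKM) was lowest, below Ceacam1 in all 6 libraries although their ranges overlapped.

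**Figure D1:**
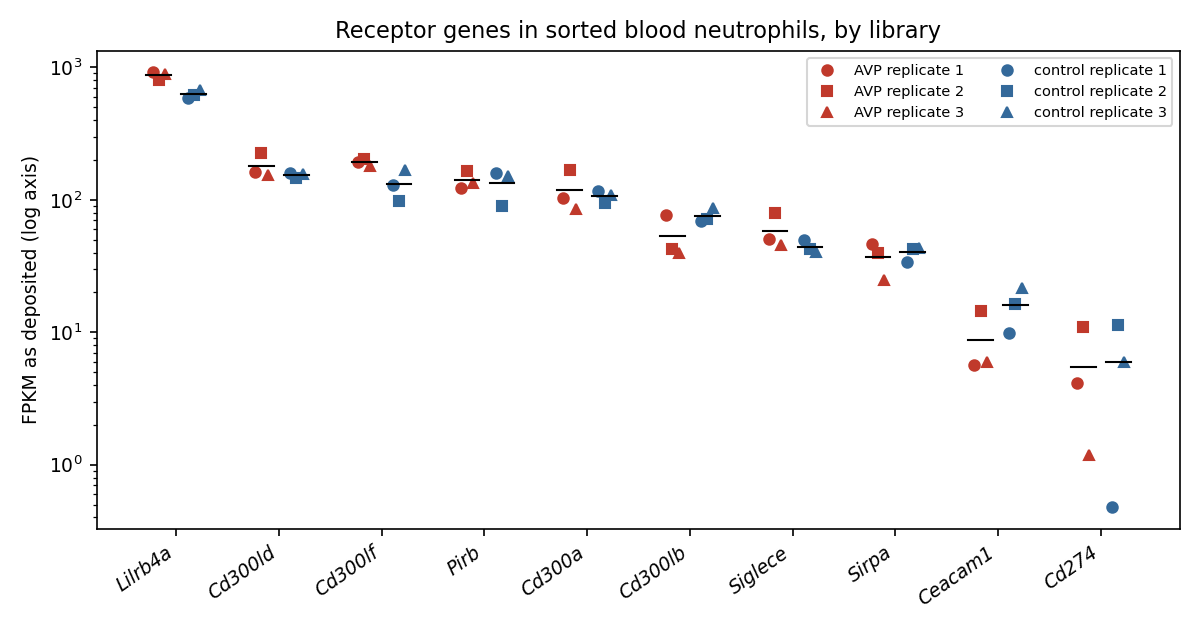
FPKM of each receptor gene in each library on a log axis, AVP left of control, with a black line at the group mean and genes ordered by their mean over all libraries. Lilrb4a and Cd300lf are the genes whose AVP points all lie above their control points, and Cd274 spreads most within each group.

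Among the inhibitory CD300 genes, Cd300lf was at 194, 202 and 181 FPKM in AVP replicates 1 to 3, against 131, 97.2 and 167 FPKM in control replicates 1 to 3. Every AVP value exceeded every control value, and the nearest values, AVP replicate 3 and control replicate 3, were close. Its AVP mean was 192 ± 11 FPKM and its control mean 132 ± 34.9 FPKM (SD, n = 3 each). By limma, the log2 fold change was 0.66 (SE 0.26, 95% interval 0.05 to 1.27) and the adjusted p 0.535. Over all features, every AVP library lay above every control library in 545 (6.39%) and below in 650 (7.63%). Without control replicate 2, the lowest control, the fold change of Cd300lf was the lowest of the 6 fits that each left out a library, at 0.47, against 0.84 without control replicate 3.

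Cd300a, the other inhibitory CD300 gene, was at 103, 167 and 84.7 FPKM after AVP, against 116, 95 and 109 FPKM in controls. The groups overlapped, with AVP replicate 2 highest and AVP replicate 3 lowest of the 6. Its fitted log2 fold change was 0.17 (95% interval -0.51 to 0.85), and it was -0.05 without AVP replicate 2.

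Of the activating CD300 genes, Cd300lb was at 76.7, 42.7 and 40 FPKM after AVP, against 69, 71.2 and 86.7 FPKM in controls. On the deposited scale AVP replicates 2 and 3 lay below every control, while AVP replicate 1 lay within the control range. After the scaling of libraries used for the fit, AVP replicate 1 lay above every control. The mean was 53.1 ± 20.5 FPKM after AVP and 75.6 ± 9.66 FPKM in controls (SD, n = 3 each), a log2 fold change of -0.48 (SE 0.37, 95% interval -1.32 to 0.36, adjusted p = 0.787 by limma), and -0.83 without AVP replicate 1, -0.30 without AVP replicate 2 and -0.29 without AVP replicate 3. AVP replicate 1 is also the library with the highest basophil sum and haemoglobin share, and the part of these cells in its value was not tested. Cd300ld was at 161, 227 and 153 FPKM after AVP, against 160, 147 and 156 FPKM in controls. The controls differed little among themselves (154 ± 6.44 FPKM, SD, n = 3), and AVP replicate 2 alone stood well above them. Its fitted log2 fold change was 0.28 (95% interval -0.25 to 0.82). On the deposited scale the groups of Cd300ld overlapped, and after the scaling of libraries used for the fit they did not.

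The balance among the 4 CD300 members can be read inside each library, where library scaling cancels. It leaves out the other CD300 genes, among them Cd300c2, which had the highest mean of the family (193 FPKM over the 6 libraries). Cd300lb made up 14.3%, 6.68% and 8.72% of the summed FPKM of the 4 CD300 members in AVP replicates 1 to 3, against 14.5%, 17.3% and 16.7% in control replicates 1 to 3. The AVP shares all lay below the control shares, by a small margin in AVP replicate 1. Cd300lf made up 36.2%, 31.7% and 39.4% after AVP, against 27.5%, 23.7% and 32.2% in controls, and here the groups overlapped. The ratio of Cd300lf to Cd300lb was 2.52, 4.74 and 4.52 after AVP (mean 3.93 ± 1.22, SD, n = 3), against 1.89, 1.37 and 1.93 in controls (mean 1.73 ± 0.31, SD, n = 3). This ratio was chosen after the values were seen and was given no test. The sum of the 4 genes was 534, 639 and 458 FPKM after AVP and 475, 411 and 519 FPKM in controls, with overlapping groups.

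**Figure D2:**
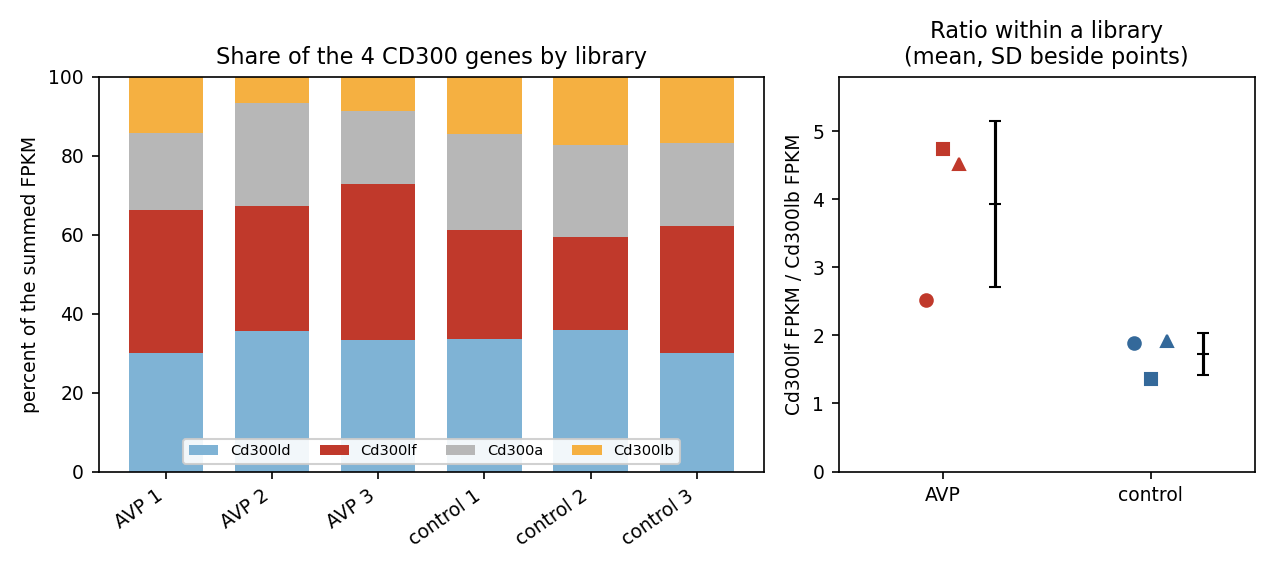
Left, share of each CD300 gene in the summed FPKM of the 4 genes, in percent, for each library; right, the ratio of Cd300lf to Cd300lb within each library, with the group mean and SD beside the points. The ratio is 2.52 to 4.74 in AVP libraries and 1.37 to 1.93 in control libraries.

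Of the immunoglobulin-like receptors outside the CD300 family, Lilrb4a (gp49B), an inhibitory receptor with ITIMs on chr10:51490898-51496613, was at 916, 800 and 893 FPKM in AVP replicates 1 to 3. In control replicates 1 to 3 it was at 590, 623 and 678 FPKM. On the deposited scale the AVP values all exceeded the control values, and both groups were tight. The mean was 869.6 ± 61.7 FPKM after AVP and 630.6 ± 44.4 FPKM in controls (SD, n = 3 each), a ratio of 1.38. The scaling used for the fit divided AVP replicate 1 by 0.892 and AVP replicate 2 by 1.04. It widened the spread of Lilrb4a after AVP, and the groups stayed apart. The fitted log2 fold change was 0.54 (SE 0.19, 95% interval 0.11 to 0.98), with an unadjusted p of 0.0204 and an adjusted p of 0.441 by limma, and 393 features had a smaller p. The unadjusted p of Lilrb4a was not under 0.05 in 4 of its 17 alternative fits, and that of Cd300lf in 7 of 16. Set against the 8 neutrophil markers one by one within each library, the ratio of Lilrb4a to the marker was above the controls in every AVP library for 4 markers, overlapped for 3 and was below the controls in every AVP library for 1. Against Csf3r, the G-CSF receptor, the ratio was 0.801, 1.08 and 0.881 after AVP and 0.541, 0.658 and 0.739 in controls. Against Retnlg, a secreted resistin-like protein of neutrophils, it was 0.0871, 0.0724 and 0.0918 after AVP and 0.12, 0.123 and 0.122 in controls. Both markers were named after their values were seen, and the direction of such a ratio thus turned with the marker chosen. Retnlg itself was at 10512, 11050 and 9729 FPKM after AVP, against 4925, 5057 and 5538 FPKM in controls. In bulk RNA, a change in the share of cells that express a gene and a change in its RNA per cell cannot be told apart.

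The neighbouring gene Lilr4b, which encodes gp49A, a relative without ITIMs, was at a similar level, with a wider spread after AVP. It was at 945, 661 and 1000 FPKM after AVP (868.5 ± 182, SD, n = 3), against 545, 559 and 593 FPKM in controls (566 ± 24.7, SD, n = 3), again without overlap. The ratio of Lilrb4a to Lilr4b ran from 0.893 to 1.21 after AVP and from 1.08 to 1.14 in controls. By limma, its log2 fold change was 0.68 (SE 0.23) and its adjusted p 0.441. Of the 151-base stretches of the Lilrb4a transcript in GENCODE M21, 7.4% also occur in Lilr4b, so most reads of this length can be told apart. Summed over both genes, a choice made after seeing the data, the FPKM were 1861, 1460 and 1893 after AVP and 1136, 1183 and 1272 in controls. By limma, the summed gene had an estimated log2 difference of 0.61 (SE 0.20) and an adjusted p of 0.398.

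Pirb, the mouse inhibitory receptor for MHC class I on chr7:3712505-3720382, was at 123, 165 and 134 FPKM after AVP, against 159, 89.6 and 152 FPKM in controls. Control replicate 2 stood apart from the other controls, and the groups overlapped (log2 fold change 0.19, 95% interval -0.47 to 0.85). Without control replicate 2 the fold change was -0.06. Its level is uncertain, since 16.1% of its 151-base stretches occur in other listed genes, mostly Gm14548. The activating relatives Pira1 and Pira2, named for this comparison after their values were seen, were at 17.7 to 32 FPKM and 24.2 to 33 FPKM after AVP, against 8.22 to 23.4 FPKM and 10.1 to 21.8 FPKM in controls. The ratio of Pirb to their sum was 2, 3.94 and 2.06 after AVP and 3.91, 4.88 and 3.37 in controls, with overlap through AVP replicate 2. The sum leaves out Lilra6, another of the activating relatives, also named after its values were seen. Lilra6 was at 42.8, 52.4 and 25.6 FPKM after AVP, against 33.9, 33.2 and 38.2 FPKM in controls. Shared stretches were not counted for these relatives.

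Sirpa, the receptor for the CD47 signal on healthy cells, lies on chr2:129591042-129632228. It was at 46.8, 39.4 and 24.8 FPKM after AVP, against 33.9, 42.7 and 43.6 FPKM in controls. AVP replicate 3 was lowest, and the fold change of -0.07 (95% interval -0.92 to 0.79) became 0.20 without it. Siglece, an inhibitory receptor for sialic acids on chr7:43648882-43672044, was at 50.7, 79.8 and 45.4 FPKM after AVP, against 49.8, 42.5 and 40.1 FPKM in controls. AVP replicate 2 stood alone, and the other AVP libraries lay within or near the control range (log2 fold change 0.44, 95% interval -0.28 to 1.17). On the deposited scale AVP replicate 2 was thus the highest of the 6 libraries for Siglece, Cd300a, Cd300ld, Cd300lf and Pirb. After the scaling used for the fit, AVP replicate 1 was the highest for Cd300lf.

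Ceacam1, an adhesion receptor with ITIMs that binds its own kind, lies on chr7:25461702-25477647. It was at 5.7, 14.4 and 5.91 FPKM after AVP, against 9.86, 16.2 and 21.7 FPKM in controls. The groups overlapped through AVP replicate 2 and control replicate 1 (log2 fold change -0.79, SE 0.54, 95% interval -2.03 to 0.46, adjusted p = 0.775 by limma). Of its 151-base stretches 24.4% also occur in Ceacam2, so its level is uncertain.

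**Figure D3:**
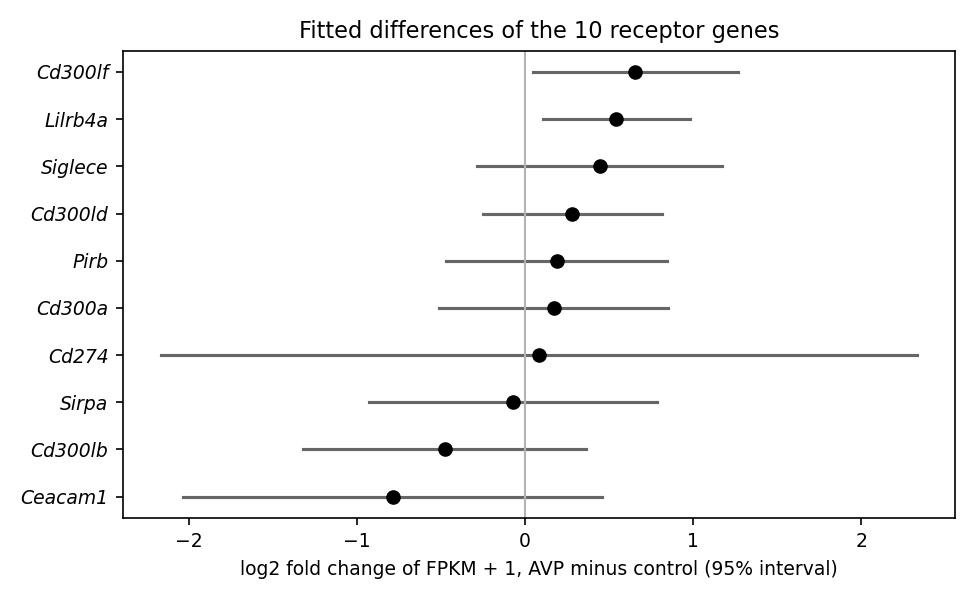
Fitted log2 fold change of FPKM + 1, AVP minus control, for each receptor gene, with its 95% interval. The intervals of Lilrb4a and Cd300lf lie above 0 before adjustment for the number of features, and those of the other 8 genes include 0. Without the intensity trend the unadjusted p of both genes was above 0.05.

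Cd274 encodes PD-L1, the ligand of the inhibitory receptor PD-1, and lies on chr19:29362107-29388095. It was at 4.15, 11 and 1.18 FPKM in AVP replicates 1 to 3 and at 0.48, 11.3 and 5.99 FPKM in control replicates 1 to 3. The highest library was 9.36 times the lowest after AVP and 23.6 times the lowest in controls, the widest spread of the 10 genes. The log2 fold change was 0.08 (95% interval -2.17 to 2.33), an interval too wide to set a direction. By a rough depth estimate of 14200000 to 17200000 fragments per library, control replicate 1 held about 25 fragments of Cd274 and control replicate 2 about 623, with a transcript length of 3622 bases from GENCODE M21. Cd80, a binding partner of PD-L1 on the same membrane, named after its values were seen, was at 18.1, 12.3 and 2.04 FPKM after AVP, against 2.81, 14.8 and 5.89 FPKM in controls. AVP replicate 3 and control replicate 1 were the lowest of their groups for both genes. The same libraries had the lowest sums of the 9 monocyte markers, which were 836, 1042 and 209 FPKM after AVP and 502, 797 and 1102 FPKM in controls. None of the 9 markers was at 0 in all 6 libraries. The part of monocyte RNA in the Cd274 values was not tested.

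**Figure D4:**
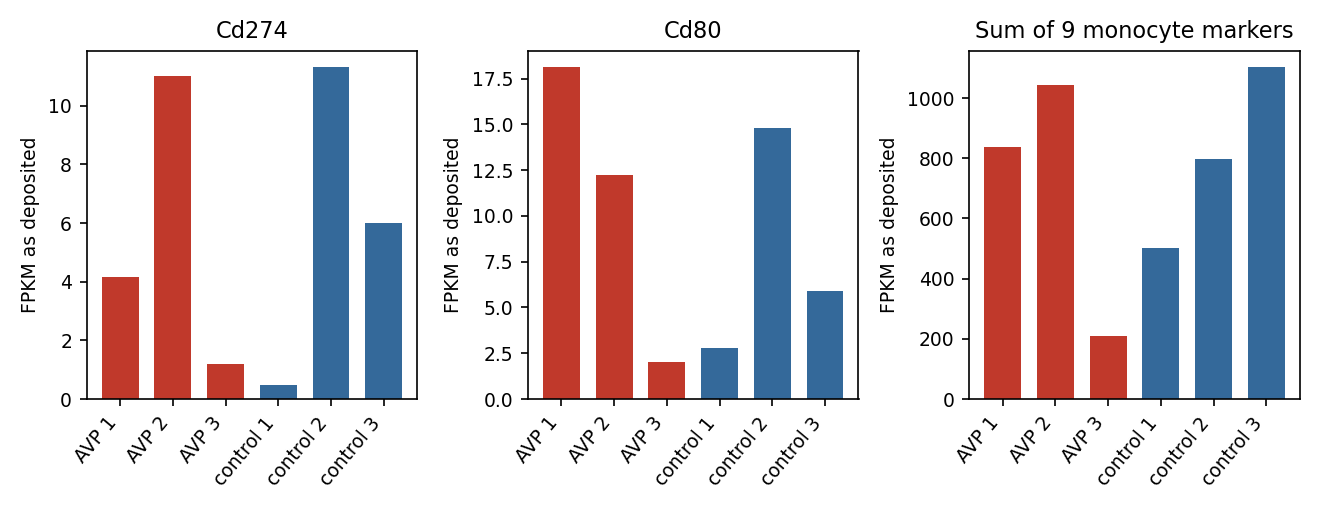
FPKM of Cd274, of Cd80 and of the sum of the 9 monocyte markers in each library, AVP in red and control in blue. AVP replicate 3 and control replicate 1 have the lowest bar of their group in all 3 panels.

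As a list, 7 of the 10 members had a fitted log2 fold change above 0 and 3 below, with a median of 0.18. Over all features tested 47.7% lay above 0, with a median of -0.04. Groups did not overlap on the deposited scale in 2 of the 10 members, both with AVP above, and in 1195 of all features (14.0%).

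The wider pathway was followed in 87 companion genes, of which 82 were listed, 11 of them at 0 in all 6 libraries, and 60 were tested. None passed the threshold by limma in either direction, 5 had an unadjusted p under 0.05 (8.47% over all features), and the median log2 fold change was 0.00. The 5 were Lilr4b and Hcst, with higher values after AVP, and Pilrb1, Btla and Jak1, with lower values, and apart from Lilr4b they were named after their values were seen. Every AVP library lay above the controls in 5 of the 60, against 6.39% of all features, and below them in 4, against 7.63%. Of the 8 other CD300 genes 3 were tested. Cd300c2, an activating member and the CD300 gene with the highest mean over the 6 libraries, was at 154, 267 and 172 FPKM after AVP, against 182, 170 and 211 FPKM in controls. Cd300c was at 0 to 4.8 FPKM after AVP, against 0 to 18 FPKM in controls. The groups overlapped for both genes.

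The adaptor genes were abundant. Tyrobp was at 8691 ± 1513 FPKM after AVP and 7237 ± 1297 FPKM in controls (SD, n = 3 each), a log2 fold change of 0.35 (SE 0.19), and Fcer1g at 2808 ± 367 FPKM after AVP and 2663 ± 599 FPKM in controls. Both overlapped between groups. Hcst (DAP10), named after its values were seen, was at 514, 497 and 539 FPKM after AVP, against 365, 338 and 358 FPKM in controls. All AVP values lay above all control values, and limma gave a log2 fold change of 0.63 (SE 0.19) and an adjusted p of 0.352.

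Of the 6 tested phosphatase and docking genes, none passed the threshold. Ptpn6 (SHP-1), the phosphatase that ITIMs recruit, was at 123, 153 and 103 FPKM after AVP, against 201, 148 and 160 FPKM in controls. AVP replicate 2 overlapped with the controls (log2 fold change -0.35, SE 0.25, adjusted p = 0.781 by limma). Dok3, an inhibitory docking protein, was at 44.7 ± 15.5 FPKM after AVP and 41 ± 19.8 FPKM in controls (SD, n = 3 each). The Src-family kinases that phosphorylate these motifs overlapped between groups, with Lyn at 85.4 ± 17.2 FPKM after AVP and 84.6 ± 10.6 FPKM in controls, and Fgr at 94.4 ± 4.3 FPKM after AVP and 84.4 ± 18.6 FPKM in controls (SD, n = 3 each).

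Of 18 tested genes of other inhibitory receptors, 2 had every AVP library above the controls, Pilra and Cd33, and 1 had every AVP library below them, Btla, a receptor of lymphocytes. Over all features groups were apart in 14.0%, 6.39% with AVP above and 7.63% with AVP below. Cd33 and Btla were named after their values were seen. Btla was at 0.759, 4.58 and 18.7 FPKM after AVP, against 20.4, 26.9 and 27.9 FPKM in controls. Pilra, an inhibitory receptor and the one with the highest mean of them over the 6 libraries, was at 164, 160 and 170 FPKM after AVP, against 153, 146 and 124 FPKM in controls (log2 fold change 0.31, SE 0.23, adjusted p = 0.781 by limma). Clec12a, an inhibitory lectin, was at 58.7 ± 29.8 FPKM after AVP and 109 ± 37.2 FPKM in controls (SD, n = 3 each), with overlap. Of 10 tested activating relatives 0 passed by limma, and 2 had an unadjusted p under 0.05, a rate of 8.47% over all features. These were Lilr4b and Pilrb1, an activating relative of Pilra that was at 59, 130 and 37.6 FPKM after AVP, against 150, 227 and 131 FPKM in controls. Sirpb1b, an activating relative of Sirpa, was at 249 ± 43.8 FPKM after AVP and 333 ± 55.3 FPKM in controls (SD, n = 3 each), with overlap. H2-D1, an MHC class I heavy chain of the kind PirB binds, and its partner chain B2m differed by 0.25 (SE 0.21) and 0.14 (SE 0.22) on the log2 scale, AVP minus control. Interferon gamma is a known inducer of Cd274. In its axis 0 of 6 tested genes passed by limma, with a log2 difference of -0.41 (SE 0.30) for the receptor chain Ifngr2 and of 0.09 (SE 0.36) for the transcription factor Irf1. The kinase gene Jak1 was at 37.4, 37.7 and 53.9 FPKM after AVP, against 101, 73 and 73.6 FPKM in controls, and the groups did not overlap. Its log2 fold change was -0.85 (SE 0.30, adjusted p = 0.466 by limma).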

How the data were processed

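Per the labels' protocols, total RNA of the sorted neutrophils went into TruSeq libraries that were sequenced with paired reads. Per the submitters' processing notes, the tools were HISAT2 2.1, featureCounts 1.6.4, DESeq2 2.11.40.6, cutadapt 1.16.5 and bcl2fastq 2.19, with mm10; the sources used here give neither their roles nor the annotation. The files name no unit, and the authors' deposited values were taken as FPKM from their range. Library totals were 755140 to 829725 FPKM. FPKM hold no counts, so the depth of 14200000 to 17200000 fragments is a rough estimate from weak steps in the values of short pseudogenes, and no counting interval is given.

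The 10 members and the companion and marker lists were chosen with earlier results of these data known. Libraries were scaled by an unweighted trimmed mean of log ratios, with trims of 0.3 on the ratios and 0.05 on the levels at both ends. Features reaching 1 FPKM in 3 or more libraries (8523) were fitted as log2(FPKM + 1) with limma 3.58.1 in R 4.3.3, with an intensity trend, no replicate term and Benjamini-Hochberg adjustment; on this scale changes of low genes come out too small. Printed FPKM are as deposited. All members are named; from each companion list the genes past the threshold are named, or else the 2 with the highest mean, and others are said to be chosen after their values were seen. Lilr4b, RefSeq gene 14727 (Gp49a), stands in the lists for a gene entered as Lilrb4b. Of the features 44705 (94%) matched RefSeq names on GRCm38, which gave coordinates and promoters. Shared stretches were counted over the longest coding transcript of each gene in GENCODE M21, against listed genes. The alternatives were other scalings, filters, pseudocounts (0.1 and 5) and moderation, and a replicate block. Further ones were removal of haemoglobin, immunoglobulin and mitochondrial genes, each library left out, and a summed gene. Python 3.11.15 with pandas 2.3.3, numpy 2.4.6 and matplotlib 3.10.9 served for tables and plots.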

Additional observations from a re-analysis of the deposited data

How the results depend on the processing

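Across the 17 alternatives to the reported fit, 0 of the 10 members passed the threshold of 0.05 in any, and the lowest adjusted p by limma was 0.373, for Lilrb4a without AVP replicate 2. The count of features past the threshold, 0 as reported, was 11 when 10 FPKM were required, 3 with a pseudocount of 5 and 1 without the intensity trend. With each library left out it ranged from 0 to 4, the 4 standing without control replicate 3, and none of these calls was a member. Of the listed genes Retnlg, a neutrophil marker, was among the 11 (log2 fold change 1.08, adjusted p = 0.0328 by limma). Unadjusted, the p of Lilrb4a was 0.187 without the intensity trend, 0.0592 with the replicate block, 0.0664 without AVP replicate 1 and 0.0762 without control replicate 1. That of Cd300lf was 0.143 without the trend, 0.0679 with the block, 0.0625 with no further scaling, and 0.0695 to 0.124 in the 4 fits without AVP replicate 1 or 2 or control replicate 1 or 2. That of Cd300lb was under 0.05 in 1 fit, without AVP replicate 1. The fold changes of Lilrb4a, Cd300lf, Cd300ld, Siglece, Cd300lb and Ceacam1 kept their sign in every alternative run for them, 17 for Lilrb4a, which includes the summed gene, and 16 for each of the others. With a pseudocount of 5 that of Cd274 turned to -0.010. With each library left out, the log2 fold change ranged from -0.055 to 0.39 for Cd300a, -0.80 to 0.73 for Cd274, -0.32 to 0.20 for Sirpa, -0.064 to 0.33 for Pirb, 0.45 to 0.65 for Lilrb4a, 0.47 to 0.84 for Cd300lf, 0.16 to 0.40 for Cd300ld, 0.25 to 0.62 for Siglece, -1.13 to -0.55 for Ceacam1 and -0.83 to -0.29 for Cd300lb; the cause was not tested. Cd274 did not pass the 10 FPKM filter.

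Samples with the same replicate number did not deviate together across features (r of 0.02, -0.01 and -0.04). Whether the number pairs the samples is not known, and a link that touches few features could not be seen in this way. With the replicate block as a term the count stayed at 0, and the adjusted p of Lilrb4a by limma was 0.658. The small number of samples, 3 a group, leaves wide intervals, most so for the members with low or scattered values. That no member was called does not show that any of them is unchanged.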
